A study of Mus musculus with 2 samples.

Results

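The genes described here are the chemokines and chemokine receptors of cultured mouse cells that the submitters name intestinal stem cells (ISC). They were measured by RNA sequencing in a culture labelled Stat6 KO and a culture labelled WT. Members were all rows whose gene symbol starts with Ccl, Cxcl, Cx3cl, Xcl, Ccr, Cxcr, Cx3cr, Xcr or Ackr followed by a digit, joined between the files by Entrez gene number. This gave 55 of 18944 genes, namely 34 ligands and 21 receptors, of which 4 are atypical receptors. One library is labelled Lgr5GFP-CreERT2 Stat6 KO and the other Lgr5GFP-CreERT2 WT, so both carry the Lgr5 reporter allele, which drives GFP and tamoxifen-activated Cre from the stem cell gene Lgr5, and both are labelled with an age of 2 months. Per the labels, cells were grown with EGF, R-spondin 1 and the ROCK inhibitor Y27632, and were made Stat6-deficient with a CRISPR lentivirus carrying Stat6 guides followed by a screen. The labels repeat this protocol for both libraries, and they do not say whether the WT cells met a control virus or how many clones or mice stand behind each culture.

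Chemokines are small proteins, mostly secreted, that guide the movement of leukocytes by activating G protein-coupled receptors on them. They are named for the spacing of their first cysteines (CC, CXC, CX3C and XC), and atypical receptors (ACKR) bind and remove them without the usual signalling. Gut epithelium is a known source of CCL25, CCL28, CXCL16 and CX3CL1, and in inflammation of CXCL and CCL ligands that recruit neutrophils and monocytes, many of which NF-kB induces. STAT6 is the transcription factor activated by interleukin 4 and interleukin 13, and CCL11, CCL17, CCL22 and CCL24 are chemokines known to respond to these cytokines in several cell types.

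There was 1 library per genotype, so no difference has a replicate check and no p-value is given. Levels are FPKM, read numbers scaled to transcript length and to the size of the library. The steps between low FPKM values correspond to about 20400000 counted reads in the Stat6 KO library and 20200000 in the WT library, fewer than the average of 59000000 that the labels state. The Stat6 transcript itself stood at 44.2 FPKM in the Stat6 KO library and 41.3 FPKM in the WT library. A CRISPR edit need not lower a transcript, so this does not check the label. All 8 epithelial markers were abundant in both libraries and within 2-fold, with Epcam at 531 FPKM in the Stat6 KO library and 577 FPKM in the WT library. Their log2 ratios ran from -0.89 for Krt18, a keratin of simple epithelia, to 0.65 for Krt20, a keratin of mature enterocytes. The stem cell marker Lgr5 stood at 1.88 FPKM in the Stat6 KO library and 1.79 FPKM in the WT library. This was far below Krt20, at 565 FPKM in Stat6 KO and 361 FPKM in WT. The share of stem cells in each culture was not tested. The 6 stem cell markers summed to 54.1 FPKM in Stat6 KO and 72.0 FPKM in WT. Of these, Sox9 was at least 2-fold lower at 9.68 FPKM in Stat6 KO and 22.53 FPKM in WT (log2 ratio -1.14, or -0.93 with the TMM scaling used further on), Ascl2 had a log2 ratio of -0.71, and Smoc2 was highest at 0.19.

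The Stat6 KO culture held less of the transcripts for ligands of CXCR2 and CCR2, receptors of neutrophils and monocytes, and more of those for the gut-homing ligand Ccl25. The measure of difference is the log2 ratio, log2((Stat6 KO FPKM + 1)/(WT FPKM + 1)), and a gene is called measured where either library has it at 1 FPKM or above. Of 34 ligands, 19 were measured. Among these 19, 5 were at least 2-fold lower in the Stat6 KO library (Ccl2, Ccl7, Cxcl3, Cxcl1 and Cxcl2), where 2.18% of the 12079 measured genes were, and 0 were at least 2-fold higher, where 2.44% of all were. The median log2 ratio of the 19 ligands was -0.64, beside -0.18 over all measured genes, and 13 of the 19 lay below that median of all genes. Of the 19 ligands, 14 reached 1 FPKM in both libraries, and 4 of those 14 were at least 2-fold lower, where 1.47% of the 11225 genes that reached it in both were. Another 3 reached it only in the WT library and 2 only in the Stat6 KO library, so these 5 had to differ.

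**Figure D1:**
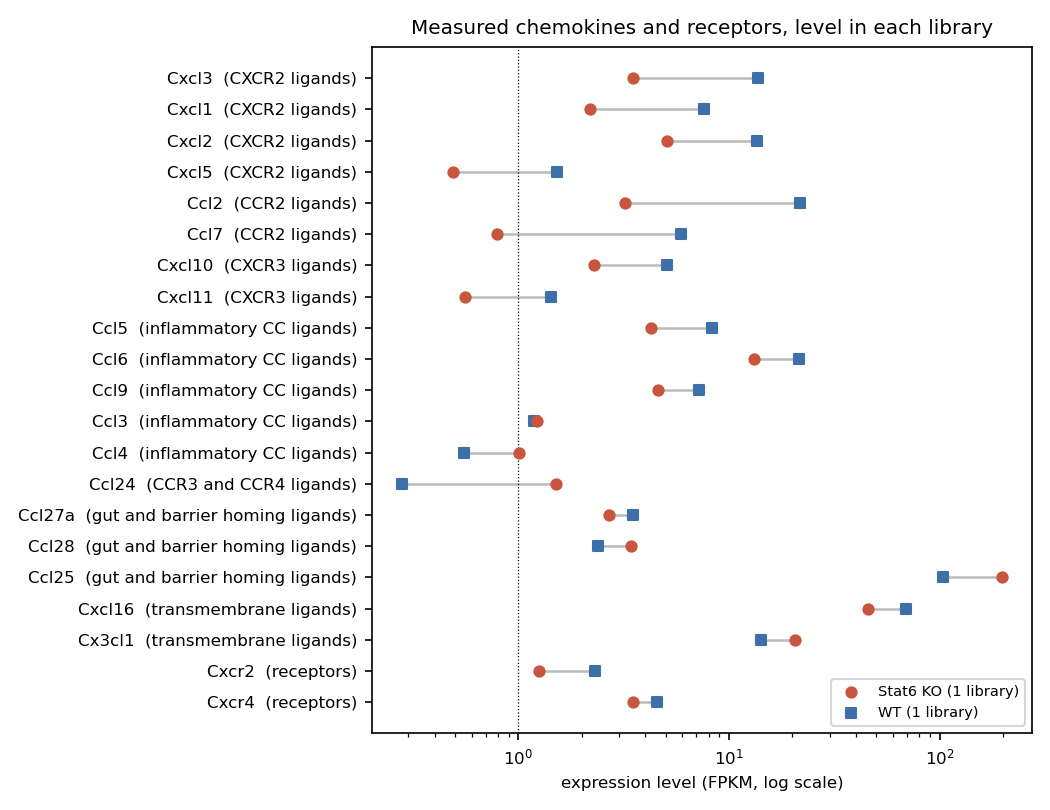
Level of each of the 21 measured chemokine and receptor genes (FPKM, log axis) in the Stat6 KO library (circles) and the WT library (squares), grouped by the receptor or role of the product; the dotted line marks 1 FPKM. The CXCR2 and CCR2 ligands lie to the left in Stat6 KO, Ccl2 at 3.21 against 21.74 FPKM, while Ccl25 lies to the right at 197.6 against 103.78 FPKM.

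Scaling affects these counts, because most genes read slightly lower in the Stat6 KO library. With a TMM factor (a trimmed mean of log ratios), which moves all log2 ratios of abundant genes up by 0.23, the same 5 ligands stayed at least 2-fold lower, where 1.42% of all measured genes were. With that factor 2 ligands, Ccl25 and Ccl24, passed 2-fold on the higher side, where 3.62% of all measured genes did. With a pseudocount of 5 FPKM, Ccl2 at -1.70 and Cxcl3 at -1.14 stayed past 2-fold, where 0.522% of all measured genes were, while Ccl7 at -0.91, Cxcl2 at -0.88 and Cxcl1 at -0.82 did not.

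The ligands of CXCR2, the main receptor that draws neutrophils into tissue, were all lower in the Stat6 KO library. Cxcl3 stood at 3.51 FPKM in the Stat6 KO library and 13.75 FPKM in the WT library, a log2 ratio of -1.71, and was the 48th lowest of the 12079 measured genes. Cxcl1 (KC, a major mouse neutrophil attractant) stood at 2.18 FPKM in the Stat6 KO library and 7.64 FPKM in the WT library, a log2 ratio of -1.44. Cxcl2 (MIP-2) stood at 5.10 FPKM in the Stat6 KO library and 13.56 FPKM in the WT library, a log2 ratio of -1.26. The summed level of these genes and Cxcl5 was 11.3 FPKM in the Stat6 KO library, against 36.5 FPKM in the WT library, so that the Stat6 KO sum was 0.309 of the WT sum.

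The differences were larger than the counting error. The estimated reads behind Cxcl1 were 40.7 in the Stat6 KO library and 141 in the WT library, and its level in Stat6 KO was 0.285 of that in WT (95% counting interval 0.198 to 0.410). For Cxcl3 this ratio of levels was 0.255 (0.193 to 0.332), and for Cxcl2 it was 0.376 (0.301 to 0.470). Cxcl5, the weakest of the group, stood at 0.49 FPKM in the Stat6 KO library and 1.52 FPKM in the WT library. Its ratio of levels was 0.322 (0.164 to 0.575) from about 15.4 and 47.2 reads, but its log2 ratio with the pseudocount was only -0.76, since the pseudocount shrinks differences between low values. Such intervals cover counting error only and leave out the variation between cultures. The share of all genes whose interval excludes 1 is not given here. Cxcl1, Cxcl2, Cxcl3 and Cxcl5 are paralogs, and the share of 50-base windows of their transcripts that also occur in transcripts of another gene was 0% for Cxcl1, 5.75% for Cxcl2, 6.31% for Cxcl3 and 3.08% for Cxcl5.

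The genes of this group are neighbours on chromosome 5 in RefSeq's gene order (GRCm38.p6), in the order Cxcl5, Ppbp, Pf4, Cxcl3, Cxcl15, Cxcl1 and Cxcl2, where Ppbp and Pf4 are chemokine genes outside the naming rule. Cxcl15, which lies inside the run and is known chiefly from mouse lung, stood at 0.05 FPKM in the Stat6 KO library and at 0 in the WT library. The promoters of Cxcl1, Cxcl2 and Cxcl3 are shown because the 3 most abundant ligands of the group carry an identical stretch there. The bases directly before each gene's start site are given from RefSeq, build GRCm38.p6, 5′ to 3′ on the gene's strand, with capitals marking matches to the NF-kB-type motif GGGANNTTCC or its reverse complement. Positions are chr5:90891115-90891244, plus strand for Cxcl1, chr5:90903769-90903898, plus strand for Cxcl2, chr5:90785971-90786100, plus strand for Cxcl3 and chr5:92348890-92349059, minus strand for Cxcl10, a CXCR3 ligand described further on.
Cxcl1: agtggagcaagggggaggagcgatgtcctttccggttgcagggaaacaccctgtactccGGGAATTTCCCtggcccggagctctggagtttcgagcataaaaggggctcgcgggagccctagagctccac
Cxcl2: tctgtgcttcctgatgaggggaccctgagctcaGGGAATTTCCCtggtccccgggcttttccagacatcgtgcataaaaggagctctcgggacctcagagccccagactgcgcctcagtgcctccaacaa
Cxcl3: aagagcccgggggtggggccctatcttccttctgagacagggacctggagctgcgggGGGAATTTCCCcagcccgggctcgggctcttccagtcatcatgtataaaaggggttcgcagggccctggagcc
Cxcl10: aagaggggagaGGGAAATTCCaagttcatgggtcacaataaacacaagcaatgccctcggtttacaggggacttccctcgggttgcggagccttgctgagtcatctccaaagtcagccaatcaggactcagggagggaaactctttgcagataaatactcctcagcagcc

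In Cxcl1, Cxcl2 and Cxcl3 the same 11 bases, GGGAATTTCCC, begin at positions -71, -97 and -73 from the start site, and they match the motif on both strands with an overlap of all but 1 base at each end. Cxcl10 has the related GGGAAATTCC, which begins at position -159. The motif was present in 482 of 32851 promoter windows of 300 bases, or 1.47%, and in 5 of 30 windows of the 24 chemokine ligand genes found in the table. The fifth window belonged to Ccl1, which stood at 0.21 FPKM in the Stat6 KO library and was listed at 0 in the WT library. A STAT6-type motif, TTCNNNNGAA (the same on both strands), was present in 6.95% of all windows and in 1 of the 30 ligand windows, that of Ccl17. A match of letters does not show that a factor binds, and the promoters of Ccl2, Ccl7 and Cxcl5 are not analysed here.

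The ligands of CCR2, the receptor that brings monocytes out of the blood, had the lowest log2 ratios of all members. Ccl2 (MCP-1) stood at 3.21 FPKM in the Stat6 KO library and 21.74 FPKM in the WT library. Its log2 ratio of -2.43 was the 18th lowest of the 12079 measured genes, and its level in Stat6 KO was 0.148 of that in WT (95% counting interval 0.108 to 0.199; about 50.8 and 341 reads). Ccl7 (MCP-3) stood at 0.79 FPKM in the Stat6 KO library and 5.91 FPKM in the WT library, a log2 ratio of -1.95 and the 33rd lowest. Its ratio of levels was 0.134 (0.0651 to 0.239). Ccl2 and Ccl7 are direct neighbours on chromosome 11, and within each library they kept a similar proportion, with 4.06 times as much Ccl2 as Ccl7 in Stat6 KO and 3.68 times in WT. The next members of that run were near 0. Ccl11 was listed at 0 in the Stat6 KO library and at 0.05 FPKM in the WT library, and Ccl8 stood at 0.21 FPKM in the Stat6 KO library and 0.10 FPKM in the WT library.

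**Figure D2:**
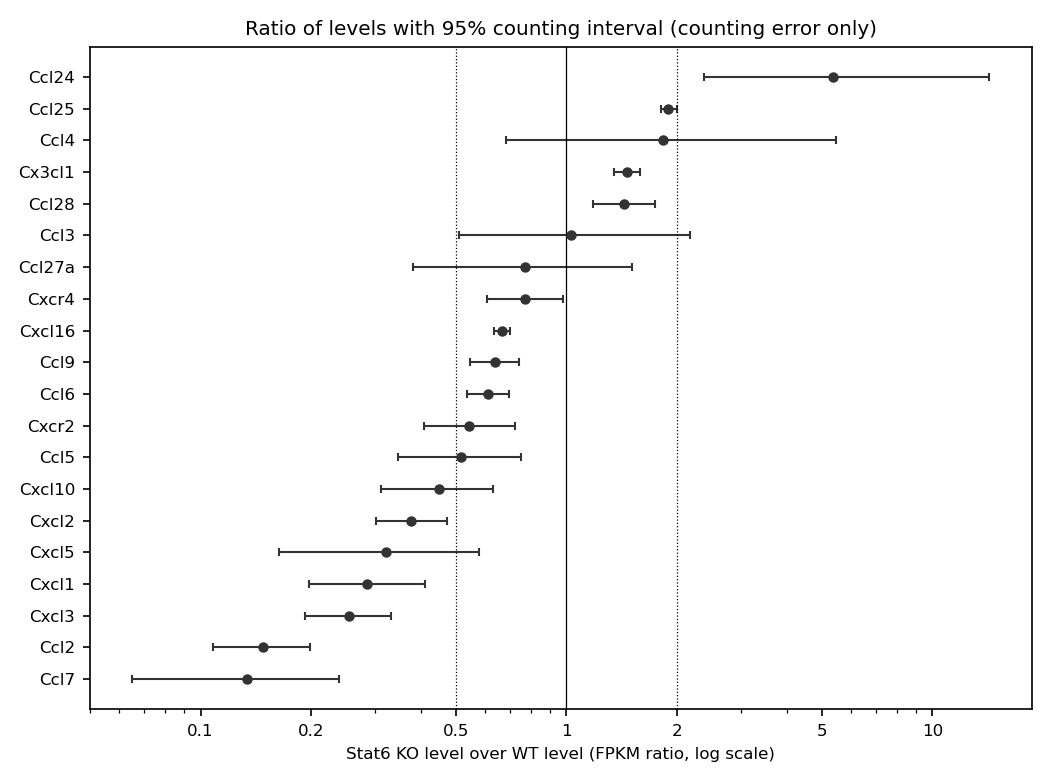
Ratio of the Stat6 KO level to the WT level (FPKM, no pseudocount, log axis) for the 20 measured members whose reads could be estimated, with bars for the 95% counting interval (counting error only); dotted lines mark 2-fold in each direction. Ccl7 and Ccl2 lie lowest at 0.134 and 0.148, and Ccl24 lies highest at 5.36.

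Ligands of CXCR3, a receptor of activated T cells and natural killer cells, were lower in the Stat6 KO library but within 2-fold on the log2 ratio scale. Cxcl10, which interferon induces, stood at 2.28 FPKM in the Stat6 KO library and 5.10 FPKM in the WT library, a log2 ratio of -0.90 and a ratio of levels of 0.447 (0.311 to 0.629). Cxcl9 stood at 0.19 FPKM in the Stat6 KO library and 0.59 FPKM in the WT library, below the minimum in both. Cxcl11, at 0.56 FPKM in the Stat6 KO library and 1.43 FPKM in the WT library (log2 ratio -0.64), is listed as a transcribed pseudogene in the C57BL/6J reference, so its transcript may not give a protein.

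The inflammatory CC ligands Ccl3, Ccl4, Ccl5, Ccl6 and Ccl9, which attract monocytes, macrophages and T cells, differed less and not all one way. Ccl6, a CC chemokine of rodents, was the most abundant of them at 13.12 FPKM in the Stat6 KO library and 21.5 FPKM in the WT library, a log2 ratio of -0.67. Ccl5 (RANTES) stood at 4.28 FPKM in the Stat6 KO library and 8.33 FPKM in the WT library, a log2 ratio of -0.82, and Ccl9 at 4.59 FPKM in Stat6 KO and 7.20 FPKM in WT, a log2 ratio of -0.55. All of these had counting intervals below a ratio of 1. Ccl3 (MIP-1 alpha) was at 1.22 FPKM in the Stat6 KO library and 1.18 FPKM in the WT library, a log2 ratio of 0.03, with a counting interval of 0.510 to 2.17 for the ratio of levels. Ccl4 (MIP-1 beta) was at 1.01 FPKM in the Stat6 KO library and 0.55 FPKM in the WT library, a log2 ratio of 0.37, with an interval of 0.682 to 5.44, so no difference was detectable for either at this depth. These genes also form a run on chromosome 11, in the order Ccl5, Ccl9, Ccl6, Ccl3 and Ccl4. Of the 5, 0 passed 2-fold, where 2.18% of all measured genes did on the lower side and 2.44% on the higher.

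Ccl25, the ligand that brings CCR9-bearing lymphocytes to the small intestine, was the most abundant chemokine in both libraries and the main member on the higher side. It stood at 197.6 FPKM in the Stat6 KO library and 103.78 FPKM in the WT library, a log2 ratio of 0.92 and a ratio of levels of 1.90 (1.81 to 2.01). Of the 8 epithelial markers, 3 read higher and 5 lower in the Stat6 KO library. The highest log2 ratios were those of Krt20 and Vil1 (villin), both of mature enterocytes. Krt20 stood at 565.4 FPKM in Stat6 KO and 360.6 FPKM in WT, and Vil1 at 631.6 FPKM in Stat6 KO and 424.6 FPKM in WT. The part of mature enterocytes in the Ccl25 level was not tested. Ccl28, which binds CCR10 and draws antibody-producing cells to mucosa, stood at 3.44 FPKM in the Stat6 KO library and 2.39 FPKM in the WT library, a log2 ratio of 0.39 (ratio of levels 1.44, interval 1.18 to 1.75). Ccl20, the CCR6 ligand of the epithelium over lymphoid follicles, was near 0, at 0.24 FPKM in the Stat6 KO library and 0.12 FPKM in the WT library. Ccl27a, a CCR10 ligand best known from skin, stood at 2.69 FPKM in the Stat6 KO library and 3.49 FPKM in the WT library, a log2 ratio of -0.28. This value is uncertain, because 75.4% of the 50-base windows of its transcript occur in another gene's transcripts, and its copy Ccl27b was at 0.16 FPKM in Stat6 KO and 0.22 FPKM in WT.

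Both chemokines made as membrane-anchored proteins were well expressed and lay on opposite sides. Cxcl16, whose receptor CXCR6 is found on T cells, stood at 45.88 FPKM in the Stat6 KO library and 68.92 FPKM in the WT library, a log2 ratio of -0.58 and a ratio of levels of 0.666 (0.633 to 0.701). Cx3cl1 (fractalkine), which holds and attracts CX3CR1-bearing macrophages, stood at 20.63 FPKM in the Stat6 KO library and 14.11 FPKM in the WT library, a log2 ratio of 0.52 and a ratio of levels of 1.46 (1.35 to 1.59). Within each library, Cxcl16 was 2.22 times as abundant as Cx3cl1 in Stat6 KO and 4.88 times in WT.

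Ccl11, Ccl17, Ccl22 and Ccl24 are not a full list of the chemokines that respond to interleukin 4 and interleukin 13. Among these named ones, Ccl24 (eotaxin 2, an eosinophil attractant) was the only one measured. It stood at 1.5 FPKM in the Stat6 KO library and 0.28 FPKM in the WT library, a log2 ratio of 0.97. The ratio of levels was 5.36 (2.37 to 14.3) from about 38.5 and 7.12 reads. Its log2 ratio depends on the pseudocount and was 2.07 with 0.1 FPKM and 0.30 with 5 FPKM. Ccl22, a CCR4 ligand, stood at 0.67 FPKM in the Stat6 KO library and 0.96 FPKM in the WT library, and Ccl17, also a CCR4 ligand, at 0.20 FPKM in Stat6 KO and 0.30 FPKM in WT. Their intervals held a ratio of 1, from 0.427 to 1.16 for Ccl22 and from 0.0551 to 5.76 for Ccl17.

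**Figure D3:**
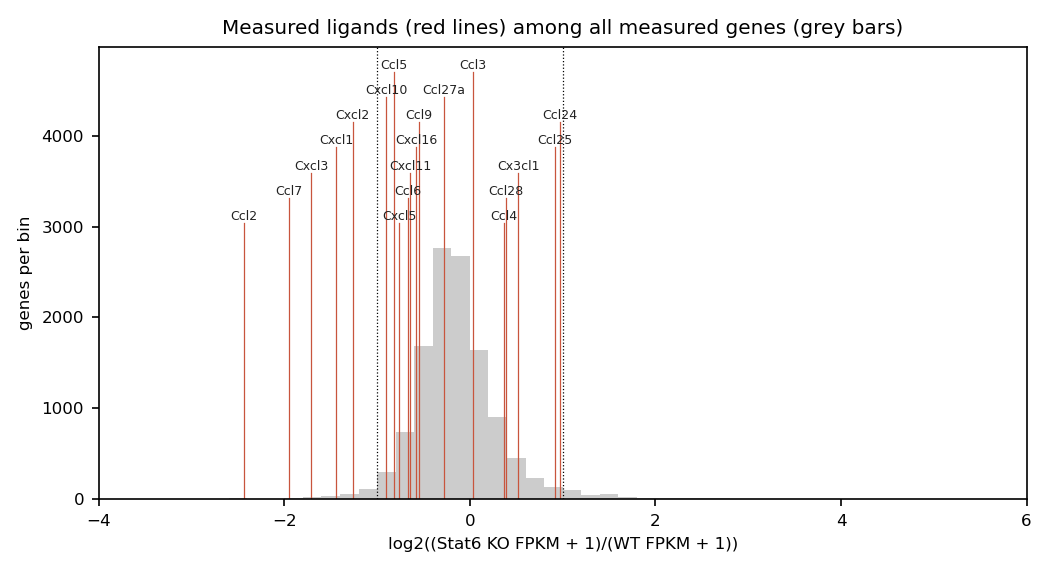
Number of measured genes (grey bars, 12079 in all) by log2 ratio of Stat6 KO over WT in bins of 0.2, with the 19 measured ligands as red lines whose heights only make room for names; dotted lines mark 2-fold. Ccl2, Ccl7, Cxcl3, Cxcl1 and Cxcl2 lie beyond the left line, from -2.43 to -1.26, and Ccl24 and Ccl25 lie just inside the right line at 0.97 and 0.92.

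The family split followed these members. All 7 measured CXC ligands had log2 ratios below that of the median gene, with a median of -0.90. Of the 7, 3 were at least 2-fold lower, where 2.18% of all measured genes were. Cxcl5 and Cxcl11 reached 1 FPKM only in the WT library, so these CXC ligands had to read lower in Stat6 KO. Of 11 measured CC ligands 6 lay below the median gene and 5 above it, with a median of -0.28. Among these CC ligands, Ccl7 reached 1 FPKM only in the WT library, and Ccl4 and Ccl24 only in the Stat6 KO library. Relative to the median gene, these medians were -0.71 for CXC and -0.10 for CC ligands.

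On the deposited scale the total level of ligands was nearly the same while its composition was not. The log2 ratio of the total was 0.05, or 0.28 with the TMM factor. The 34 ligands summed to 316 FPKM in the Stat6 KO library and 305 FPKM in the WT library. Ccl25 made up 62.5% of that sum in Stat6 KO and 34.0% in WT, and Cxcl16 made up 14.5% in Stat6 KO and 22.6% in WT. Without Ccl25 the sum was 118 FPKM in the Stat6 KO library and 202 FPKM in the WT library. Ccl2 alone made up 1.02% in Stat6 KO and 7.12% in WT.

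**Figure D4:**
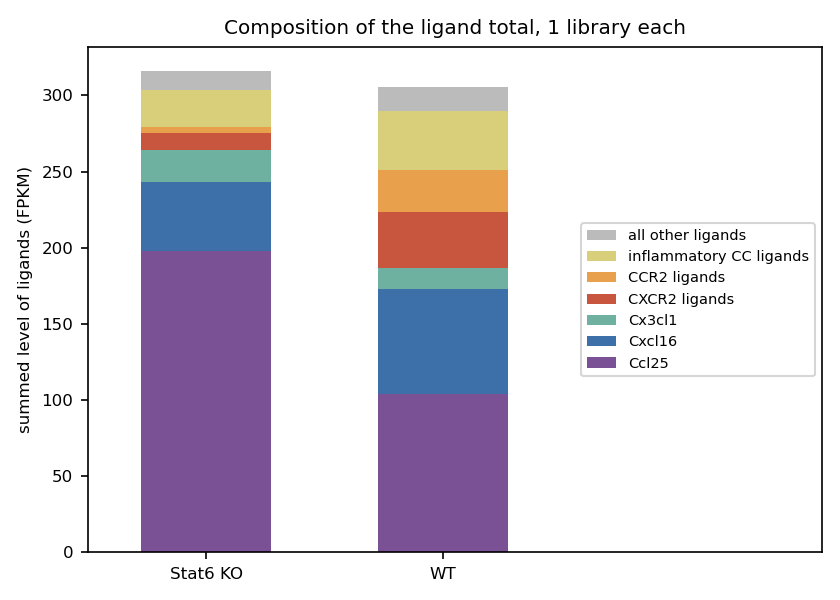
Summed level of the 34 ligands (FPKM) in the Stat6 KO library and the WT library, stacked by gene or receptor group. The totals are 316 and 305 FPKM; the Ccl25 segment is 197.6 FPKM in Stat6 KO against 103.78 in WT, and the CXCR2 ligand segment is 11.3 against 36.5 FPKM.

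The other 15 ligands were below 1 FPKM in both libraries, with a highest value of 0.67 FPKM in Stat6 KO and 0.96 FPKM in WT, both for Ccl22. Of these 15, 4 read higher and 11 lower in the Stat6 KO library. Low genes leaned this way as a whole. Of all 6865 genes below 1 FPKM in both libraries, 1965 read higher, 3762 lower and 1138 the same. Over all 18944 genes, 1684 were listed at 0 in Stat6 KO and 1370 in WT. Of the 15 ligands, 6 were listed at 0 in Stat6 KO (Ccl11, Ccl21b, Cxcl12, Cxcl13, Cxcl17 and Xcl1) and 2 in WT (Ccl1 and Cxcl15). They had no more than about 3.35 reads in the other library. Cxcl12, the stromal ligand of CXCR4, was 1 of them, at 0.09 FPKM in WT. Ccl21b has near-identical copies, so its 0.19 FPKM in WT is uncertain. Cxcl14, an epithelial chemokine, stood at 0.03 FPKM in the Stat6 KO library and 0.14 FPKM in the WT library. The counting interval of the ratio excluded 1 for 1 of the 15, Cxcl9.

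Chemokine receptors were almost silent in both cultures. Of 21 receptors, 2 were measured, and 0 of those were at least 2-fold apart. Over all measured genes, 2.18% were at least 2-fold lower and 2.44% at least 2-fold higher. With 2 genes, a count of 0 does not set the receptors apart. Cxcr4, the CXCL12 receptor, stood at 3.49 FPKM in the Stat6 KO library and 4.53 FPKM in the WT library, a log2 ratio of -0.30 and a ratio of levels of 0.770 (0.605 to 0.978). With the TMM factor that interval was 0.710 to 1.15 and held 1. Cxcr2, the neutrophil receptor for CXCL1, CXCL2, CXCL3 and CXCL5, stood at 1.25 FPKM in the Stat6 KO library and 2.31 FPKM in the WT library, a log2 ratio of -0.56 and a ratio of levels of 0.541 (0.407 to 0.724).

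The remaining 19 receptors reached at most 0.34 FPKM in the Stat6 KO library and 0.78 FPKM in the WT library. They summed to 2.64 FPKM in Stat6 KO and 4.44 FPKM in WT. All 6865 genes below 1 FPKM in both libraries also summed lower, to 1090 FPKM in Stat6 KO and 1400 FPKM in WT. Ccr7, which guides lymphocytes and dendritic cells to lymph nodes, stood at 0.29 FPKM in Stat6 KO and 0.78 FPKM in WT. Ccr1, of monocytes and neutrophils, stood at 0.32 FPKM in the Stat6 KO library and 0.61 FPKM in the WT library. Cxcr6 was at 0.16 FPKM in Stat6 KO and 0.46 FPKM in WT, Ccr4 at 0.08 FPKM in Stat6 KO and 0.26 FPKM in WT, and Cxcr3 at 0.03 FPKM in Stat6 KO and 0.26 FPKM in WT. The counting interval of the ratio lay below 1 for Ccr1, Ccr4, Ccr7, Cxcr3 and Cxcr6. With the TMM factor it still lay below 1 for Ccr7 and Cxcr3, held 1 for Ccr1, Ccr4 and Cxcr6, and lay above 1 for Cx3cr1. How often the intervals of other low genes lay below 1 is not given here. Ccr2 stood at 0.11 FPKM in the Stat6 KO library and 0.03 FPKM in the WT library, and Ccr9, the receptor of CCL25, at 0.08 FPKM in Stat6 KO and 0.15 FPKM in WT. Cxcr5, of B cells, stood at 0.09 FPKM in Stat6 KO and 0.27 FPKM in WT. Ccr3, Ccr6, Ccr8, Ccr10 and Xcr1 reached at most 0.12 FPKM in Stat6 KO and 0.10 FPKM in WT, both for Xcr1, a receptor of cross-presenting dendritic cells. The intervals of these genes, of Ccr2, Ccr9 and Cxcr5, held a ratio of 1.

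**Figure D5:**
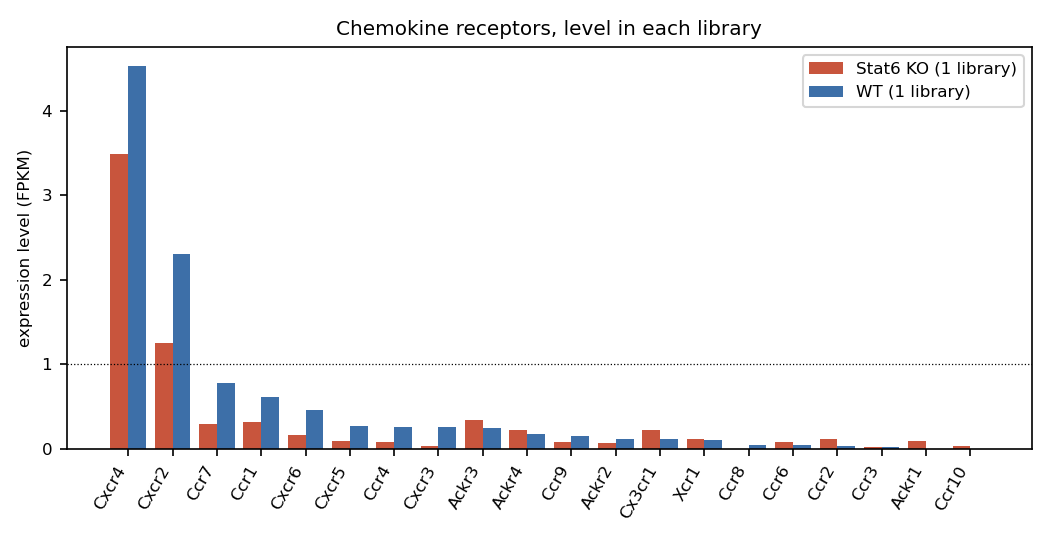
Level of 20 of the 21 chemokine receptors (FPKM) in the Stat6 KO library (left bar of each pair) and the WT library (right bar), ordered by the WT level; the dotted line marks 1 FPKM. Only Cxcr4 and Cxcr2 pass the line, at 3.49 and 1.25 FPKM in Stat6 KO and 4.53 and 2.31 FPKM in WT.

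The 4 atypical receptors were low too, and no difference between the libraries was detectable for them at this depth. Ackr3, which removes CXCL12, stood at 0.34 FPKM in the Stat6 KO library and 0.25 FPKM in the WT library. Ackr4, a scavenger of CCL19, CCL21 and CCL25, stood at 0.22 FPKM in Stat6 KO and 0.17 FPKM in WT, and Ackr2, a scavenger of inflammatory CC chemokines, at 0.07 FPKM in Stat6 KO and 0.11 FPKM in WT. Ackr1 was at 0.09 FPKM in Stat6 KO and at 0 in WT. The counting intervals of all 4 held a ratio of 1.

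All 19 measured ligands have a known receptor in the table, and for 4 of them (Cxcl1, Cxcl2, Cxcl3 and Cxcl5, all through Cxcr2) that receptor was itself measured. The most abundant ligands lacked it. Beside Ccl25, Ccr9 was at no more than 0.15 FPKM in either library. Beside Cxcl16, Cxcr6 was at no more than 0.46 FPKM, and beside Cx3cl1, Cx3cr1 stood at 0.22 FPKM in Stat6 KO and 0.11 FPKM in WT.

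Most measured markers of white blood cells read lower in the Stat6 KO library, as did most measured genes. Of 14 white blood cell markers found, 9 were measured. Of these 9, 2 were at least 2-fold lower in the Stat6 KO library, where 2.18% of all measured genes were. On the higher side 0 passed 2-fold, where 2.44% of all measured genes did. The median log2 ratio of the 9 was -0.63, beside -0.18 over all measured genes. Csf1r, Ptprc, Cd79a and Adgre1 reached 1 FPKM only in the WT library, so these markers had to read lower in Stat6 KO. The macrophage marker Cd68 stood at 6.08 FPKM in the Stat6 KO library and 17.74 FPKM in the WT library, and Coro1a at 1.12 FPKM in Stat6 KO and 3.67 FPKM in WT. Ptprc (CD45), the common leukocyte antigen, stood at 0.57 FPKM in the Stat6 KO library and 1.43 FPKM in the WT library. Itgam and Ly6g, of myeloid cells, read the other way, at 1.72 and 2.73 FPKM in Stat6 KO, against 1.26 and 2.04 FPKM in WT. The 14 markers summed to 20.9 FPKM in Stat6 KO and 40.7 FPKM in WT, and 0 of them were at 0 in either library. Of 5 endothelial markers 4 were measured. Of these 4, 0 passed 2-fold, where 2.18% of all measured genes did on the lower side and 2.44% on the higher. The log2 ratios of the 4 ran from -0.81 for Pecam1 to -0.33 for Kdr. The endothelial list summed to 4.77 FPKM in Stat6 KO and 9.88 FPKM in WT. Of 6 stromal markers 1 was measured, Dcn, at 0.88 FPKM in Stat6 KO and 2.75 FPKM in WT. The stromal list summed to 2.48 FPKM in Stat6 KO and 4.77 FPKM in WT. Dcn and the endothelial markers Emcn and Kdr likewise reached 1 FPKM only in the WT library. The part of these cells in the ligand and receptor differences was not tested, and in bulk RNA fewer cells of a type and less RNA per cell cannot be told apart.

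A pair of brush-border peptidases that trim chemokines stood higher in the Stat6 KO library. Of 14 genes that process or present chemokines 12 were measured. Of these 12, 2 were at least 2-fold higher in the Stat6 KO library, where 2.44% of all measured genes were. On the lower side 0 passed 2-fold, where 2.18% of all measured genes did. Dpp4, the peptidase that trims the amino terminus of many chemokines, stood at 74.44 FPKM in the Stat6 KO library and 18.78 FPKM in the WT library, a log2 ratio of 1.93. Anpep (aminopeptidase N), which trims peptides at the same end, stood at 1223 FPKM in Stat6 KO and 498 FPKM in WT, a log2 ratio of 1.29. Both are enzymes of mature enterocytes, and the part of such cells was not tested here either. Krt20 and Vil1, also of mature enterocytes, had log2 ratios of 0.65 and 0.57. These were the highest of the 8 epithelial markers, of which 5 read lower in Stat6 KO. Adam10 and Adam17, the sheddases of CX3CL1 and CXCL16, had log2 ratios of 0.09 and -0.08, or 0.31 and 0.13 with the TMM factor. The lowest was Mmp14, a membrane metalloproteinase, at 10.6 FPKM in the Stat6 KO library and 14.31 FPKM in the WT library, a log2 ratio of -0.40.

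Of 60 genes of receptor signalling 49 were measured, and 0 were at least 2-fold apart in either direction. Over all measured genes, 2.44% were at least 2-fold higher and 2.18% at least 2-fold lower. The median log2 ratio of the 49 was 0.00, beside -0.18 over all measured genes, and 33 of the 49 lay above that median of all genes. The G protein gene Gnai2 stood at 150.8 FPKM in the Stat6 KO library and 146.6 FPKM in the WT library. The highest log2 ratio was that of Elmo1 (0.73), which helps activate Rac, and the lowest that of Arrb2 (-0.93), the arrestin that takes receptors off the surface, at 4.45 FPKM in Stat6 KO and 9.36 FPKM in WT. Rac2, a Rac of blood cells, stood at 0.89 FPKM in the Stat6 KO library and 1.94 FPKM in the WT library.

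Of 8 other genes of the chemokine system that lie outside the naming rule, 5 were measured. Of these 5, 1 was at least 2-fold lower, where 2.18% of all measured genes were. Pf4 (CXCL4), made by platelets and their precursors, stood at 1.11 FPKM in the Stat6 KO library and 3.65 FPKM in the WT library, a log2 ratio of -1.14. Ppbp (CXCL7), a CXCR2 ligand of platelets, stood at 0.37 FPKM in Stat6 KO and 0.95 FPKM in WT. Mif, a cytokine that also binds CXCR2 and CXCR4, was abundant at 550.6 FPKM in the Stat6 KO library and 595.6 FPKM in the WT library. Ccrl2, a chemerin-binding relative of the receptors, was highest in log2 ratio at 0.09.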

How the data were processed

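Per the labels' protocols, total RNA of the cultures was read on a BGISEQ-500 in single-ended runs of 50 bases, with a stated average of 59000000 reads. The authors deposited 1 FPKM value for each gene, given to 2 decimals, with the unit named per the file headers. HISAT, Bowtie2, RSEM and the mm9 build are named in the submitters' processing notes without roles or order; versions, annotation and filters: not given.

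The log2 ratio used a pseudocount of 1 FPKM, which understates changes of low genes, and a minimum of 1 FPKM in at least 1 library. Genes past 2-fold were counted, over the whole table for the background. With 1 library per genotype no test was run. All members at 1 FPKM or more are named, and of the other lists the genes past 2-fold, the highest and the lowest, plus a few chosen after their values were seen. The members and lists were chosen with earlier results of these data known. The values of 1 receptor are not reported here, though counts and sums over receptors hold it.

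Read numbers were estimated by finding the depth, between 8000000 and 59000000 reads, and the length offset (37 bases) that bring low values of 508 genes, those with 1 exon and small RNAs, closest to whole reads, and of near-equal depths the smallest was taken, which keeps intervals wide. Of the values at no more than 5 reads, 79.9% of 154 in Stat6 KO and 81.3% of 171 in WT came within 0.1 of a whole read. Lengths were the shortest RefSeq-matched GENCODE M21 transcript. The depth was chosen to make these shares high and is no separate check. Intervals are exact (Clopper-Pearson) at 95% on the estimated reads, converted to a ratio of levels. Simulated data were used to test the calculations. Alternatives were other pseudocounts, minimum levels, thresholds and scalings. Promoters came from RefSeq (GRCm38.p6), a later build than mm9. Python 3.11.15, pandas 2.3.3, numpy 2.4.6, scipy 1.17.1 and matplotlib 3.10.9 were used.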

Additional observations from a re-analysis of the deposited data

How the results depend on the processing

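All 21 measured members kept the sign of their log2 ratio with pseudocounts of 0.1 and 5 FPKM, with the TMM factor and with the median of all genes set to 0. Of those 84 values 77 lay within 1.5-fold of the reported one, 4 moved toward 0 and 3 away from it. The number of ligands at least 2-fold lower was 5 as reported, 8 with a pseudocount of 0.1 (5.0% of all measured genes) and 2 with a pseudocount of 5 (0.522%). It was 10 with a threshold of 1.5-fold (11.4%) and 1 with a threshold of 4-fold (0.224%). The number at least 2-fold higher was 0 as reported, 1 with a pseudocount of 0.1 (3.1% of all measured genes), 2 with the TMM factor (3.62%), 2 with the median of all genes set to 0 (3.39%) and 2 with a threshold of 1.5-fold (5.7%). Over all measured genes, the share of 2-fold differences on the higher side was 52.9% as reported, 71.9% with the TMM factor and 38.2% with a pseudocount of 0.1. The median of the ligands ranged from -0.86 with a minimum of 5 FPKM to -0.17 with no minimum. The median of all genes was -0.16 with that minimum and -0.08 with none. The log2 ratio of the summed ligand level was 0.05, or 0.28 with the TMM factor. It was -0.77 on the deposited scale without Ccl25, which leaves out the ligand that makes up most of the Stat6 KO sum. No receptor had 5 FPKM, so that minimum gave no value for receptors. Leaving out a replicate was not possible with 1 library per genotype. Depth limits the members under about 10 reads, where ratios of levels have intervals of several-fold.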
